A study of Rattus norvegicus with 6 samples.

Results

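The 10 genes described here encode parts of the signalling system of transforming growth factor beta (TGF-beta) and bone morphogenetic proteins (BMPs): a ligand (Tgfb2), a receptor (Tgfbr1), a signal transducer (Smad3), 2 inhibitory SMADs (Smad6 and Smad7), a nuclear corepressor (Skil), an early response transcription factor (Klf10) and 3 inhibitors of DNA binding (Id1, Id2 and Id3). They were taken by gene symbol from a table of RNA sequencing counts, where all 10 were found among 21553 named genes, in 16 of the 35604 rows that name a gene. The rows of a gene were added up before any test, and all 10 genes passed the filter on low counts that left 13363 tested genes. The cells were INS-1, an insulin-secreting line from a rat insulinoma, at passages 7 to 15. INS-SMA cells (3 libraries) had been made with a lentivirus that carries the gene of alpha smooth muscle actin and have the genotype label SMA overexpression. INS-MOCK cells (3 libraries) have the genotype label wild type, and the labels do not say whether they received a lentivirus. The labels do not name the promoter that drives the transgene, and they do not say whether either cell population was 1 clone. The series calls the libraries of a group biological replicates, and no further detail on separate cultures is given.

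TGF-beta and activin ligands bind pairs of receptor kinases that phosphorylate SMAD2 and SMAD3, whereas BMP ligands act through other receptors on SMAD1, SMAD5 and SMAD9. Both sets of SMADs join SMAD4 and enter the nucleus. Smad7, Smad6, Skil and Klf10 are classic rapid targets of these pathways, and their products, in turn, restrain the signal or, for KLF10, repress other genes. The Id genes are textbook BMP targets, and their products bind basic helix-loop-helix (bHLH) factors, such as the beta cell factor NEUROD1 and its E-protein partners, and keep them off DNA. Several of these genes also respond to other stimuli, so a level alone does not show which pathway was active.

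Library totals were 24719503 to 39608609 counts in INS-SMA and 34471794 to 37466920 in INS-MOCK. Rows that name no gene held 35.8% to 36.7% of the counts of an INS-SMA library and 32.7% to 33.0% of those of an INS-MOCK library, and a member's value lacks any of its reads assigned there. The overexpressed gene, listed under the human symbol ACTA2, was at 51072 CPM (counts scaled to the TMM-normalised total of each library) in INS-SMA and 5.78 CPM in INS-MOCK, which fits the labels of all 6 libraries. The summed level of 7 beta cell markers, Ins1 among them, was 2821 to 3526 CPM in INS-SMA and 31970 to 34670 CPM in INS-MOCK, and Ins1 makes up the largest share of it in INS-MOCK. Of the 7, 6 fell and 1 was not called: Iapp, at 1.68, 11.7 and 1.17 CPM in INS-SMA, against 1.20, 0.986 and 0.769 CPM in INS-MOCK. Of 8 fibroblast and mesenchymal markers 7 had a named row, with a summed level of 19.7 to 33.3 CPM in INS-SMA and 60.4 to 86.5 CPM in INS-MOCK, where Col1a2, Dcn and Lum were at 0. Thy1 and Pdgfra carry most of that sum and fell, whereas Col3a1 rose, to 2.84 ± 0.79 CPM in INS-SMA against 0.0698 ± 0.06 CPM in INS-MOCK (SD, n = 3 each). Of 4 endothelial markers 3 had a named row, with a sum of 0.481 to 1.44 CPM in INS-SMA and 0 to 0.359 CPM in INS-MOCK, where Cdh5 was at 0. Of 4 immune markers 2 had a named row, with a sum of 1.63 to 2.16 CPM in INS-SMA and 0.124 to 0.897 CPM in INS-MOCK, where Ptprc was at 0. The part of these markers in the results was not tested. In such bulk samples, fewer cells of a kind and less RNA per cell cannot be told apart.

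Smad7, Klf10, Tgfb2 and Id3 rose in INS-SMA, and none of the 10 genes fell. Smad7 was 9.41-fold and Klf10 8.57-fold higher, Tgfb2 2.97-fold and Id3 2.73-fold. Smad3 and Skil stood at nearly the same level in both groups, Id1 and Id2 were higher in every INS-SMA library than in any INS-MOCK library without passing the test, and Smad6 and Tgfbr1 had groups that overlapped. The test was edgeR's quasi-likelihood F-test with Benjamini-Hochberg adjustment over all tested genes, and a gene was called at an adjusted p under 0.05. Thus 4 of the 10 genes were called, all 4 higher, where the background over all tested genes was 55.1% called, 28.1% higher and 27.0% lower. The share of members called, either way, is therefore not above that of the transcriptome. The groups did not overlap for 6 of the 10 genes, against 65.3% of all tested genes. The median log2 fold change was 1.06 over the 10 genes and 0.03 over all tested genes.

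**Figure D1:**
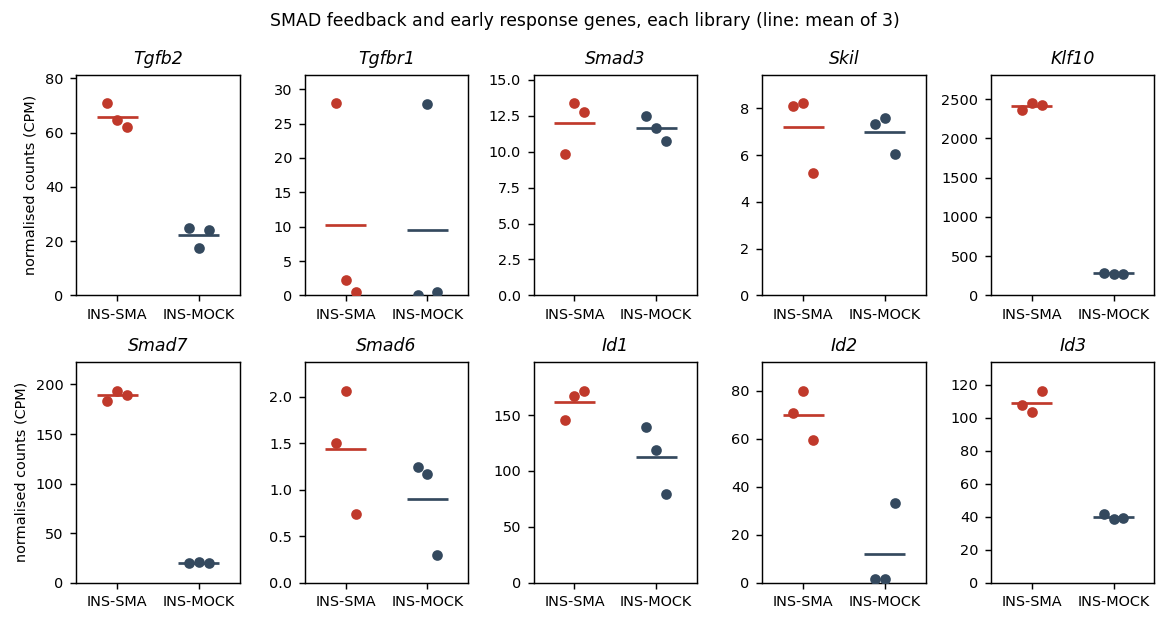
Normalised counts (CPM, linear axes from 0) of the 10 genes in each library, with INS-SMA on the left and INS-MOCK on the right of each panel; points are libraries and lines are means of 3. Smad7, Klf10, Tgfb2 and Id3 form tight and separate groups. In contrast, 1 library of each group carries nearly all of Tgfbr1, and Id2 in 1 INS-MOCK library stands above the others of that group.

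The feedback inhibitor Smad7 and the corepressor Skil are shown by sequence because both are early targets of SMADs and, of this pair, Smad7 was called and Skil was not. Each run is the 250 bases before the start site in RefSeq (build GRCr8), 5′ to 3′ on the strand of the gene, and Id3, the Id gene that rose, is given beside them. Capitals mark matches to the motifs searched on both strands, namely the palindromic SMAD box GTCTAGAC, the shorter SMAD elements CAGACA and GTCTG (whose reverse complement lies within the longer element), and the GC-rich BMP response box GGCGCC.
Smad7 (chr18:71263258-71263507, plus strand): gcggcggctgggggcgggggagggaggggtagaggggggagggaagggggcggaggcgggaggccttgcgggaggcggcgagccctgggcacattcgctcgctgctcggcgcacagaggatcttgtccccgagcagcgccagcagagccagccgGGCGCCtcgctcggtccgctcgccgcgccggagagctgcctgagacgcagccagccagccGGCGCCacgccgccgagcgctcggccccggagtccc
Skil (chr2:114203573-114203822, minus strand): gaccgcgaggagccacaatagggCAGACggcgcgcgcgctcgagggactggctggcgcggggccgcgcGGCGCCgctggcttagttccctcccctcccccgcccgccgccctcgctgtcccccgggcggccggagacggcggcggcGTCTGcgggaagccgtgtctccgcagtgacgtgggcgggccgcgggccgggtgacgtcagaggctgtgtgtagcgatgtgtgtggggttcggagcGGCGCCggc
Id3 (chr5:153656041-153656290, plus strand): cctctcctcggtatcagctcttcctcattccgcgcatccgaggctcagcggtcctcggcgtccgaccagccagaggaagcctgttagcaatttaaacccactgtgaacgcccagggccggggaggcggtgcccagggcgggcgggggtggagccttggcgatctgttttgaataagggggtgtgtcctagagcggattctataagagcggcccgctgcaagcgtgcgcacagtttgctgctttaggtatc

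In these windows Smad7 held GGCGCC at positions -96 to -91 and -36 to -31, counted from the start site. Skil held GGCGCC at -182 to -177 and -9 to -4, and GTCTG or its reverse complement at -227 to -223 and -104 to -100. Id3 held none of the 4 motifs. Each member was searched in 1 window, and any other start site of a gene was not searched. Of the 8 members with a RefSeq window (Klf10 and Smad6 had none), 3 held GGCGCC (Smad7, Skil and Tgfbr1), against 8.70% of 33469 windows of the same length. GTCTG was held by 1 member, Skil, against 42.9% of all windows. GTCTAGAC and CAGACA were held by 0 of the 8, against 0.173% and 17.2% of all windows. The G and C content of the window was 78.0% for Smad7, 77.2% for Skil, 75.6% for Tgfbr1 and 61.2% for Id3. The 3 windows with GGCGCC were thus the richest in G and C of the 8. The windows of all genes were not matched for this content, so no enrichment is read from these counts. A match is a description of the letters and not a site of binding, and Skil and Tgfbr1, which were not called, share the GC-rich box with Smad7.

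Of the ligand and receptor genes, Tgfb2 rose and Tgfbr1 was not resolved. Gene positions in the text are those of the deposited table, for which rn6 is the rat build named in the processing notes. Tgfb2, which encodes 1 of the TGF-beta ligands (chromosome 13, 105039853 to 105141030, minus strand), was at 70.8, 64.6 and 62.2 CPM in INS-SMA libraries 1 to 3, against 24.8, 17.7 and 24.1 CPM in INS-MOCK libraries 1 to 3. All INS-SMA libraries were above all INS-MOCK libraries. The log2 fold change was 1.57 (SE 0.15, edgeR adjusted p = 3.95e-04), and it ranged from 1.43 to 1.66 over the other settings. Both rows of Tgfb2 were higher in every INS-SMA library than in any INS-MOCK library: the main one had 57.6, 56.8 and 54.4 CPM in INS-SMA, against 21.4, 17.3 and 21.3 CPM in INS-MOCK, and the minor one 13.2, 7.80 and 7.78 CPM in INS-SMA, against 3.35, 0.403 and 2.82 CPM in INS-MOCK.

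Tgfbr1 (chromosome 5, 63050758 to 63119635, plus strand) encodes the type I receptor kinase of TGF-beta. It had 465, 49 and 12 counts in the INS-SMA libraries, against 3, 622 and 11 counts in the INS-MOCK libraries. INS-SMA library 1 and INS-MOCK library 2 were thus near the same level, 27.9 CPM in each, and the other 4 libraries were at 0.124 to 2.25 CPM. The log2 fold change was 0.10 with a 95% interval of -5.29 to 5.50 (adjusted p = 0.974). It was -2.81 without INS-SMA library 1 (adjusted p = 0.417) and 5.10 without INS-MOCK library 2 (adjusted p = 0.132), so a change in this receptor gene was not measurable here.

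The receptor-activated transducer Smad3 (chromosome 8, 68569530 to 68678349, minus strand) showed no difference beyond the spread of its libraries. It was at 9.85, 13.4 and 12.8 CPM in INS-SMA, against 12.5, 11.6 and 10.8 CPM in INS-MOCK, and the groups overlapped. The log2 fold change was 0.05, with a 95% interval of -0.357 to 0.448 (edgeR adjusted p = 0.836). Changes inside that interval, in either direction, were not resolved.

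The inhibitory SMADs are feedback brakes: SMAD7 blocks the type I receptors of both branches, and SMAD6 acts chiefly on the BMP branch. Smad7 (chromosome 18, 71395830 to 71424157, plus strand) was at 184, 194 and 189.7 CPM in INS-SMA, against 19.8, 20.6 and 19.8 CPM in INS-MOCK. The libraries of each group lay close together and far from the other group. Smad7 thus rose by 3.23 log2 units (SE 0.04, adjusted p = 2.01e-06 by edgeR), and 4.64% of tested genes had a larger log2 fold change. Smad6 (chromosome 8, 68898296 to 68966108, minus strand) was scarce, with 25, 45 and 19 counts in INS-SMA and 30, 26 and 7 counts in INS-MOCK. The fold change on the log2 scale was 0.66 with a 95% interval of -0.943 to 2.27 (adjusted p = 0.432), so a rise of the size seen for Smad7 lies outside the interval and a rise of up to 2.27 does not.

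Smad7 was the member whose counts were spread over the most rows. The annotated transcript had 39.7, 94.8 and 47.1 CPM in INS-SMA, against 19.8, 15.6 and 17.2 CPM in INS-MOCK. A second row, named after the gene, had 39.4, 99.0 and 36.8 CPM in INS-SMA, against 0, 5.02 and 2.61 CPM in INS-MOCK. The last row was at 104 and 105.9 CPM in INS-SMA libraries 1 and 3 and at 0 in INS-SMA library 2 and in all INS-MOCK libraries. In INS-SMA the sum over rows varied by far less than any of the rows, and the gene had a mean of 189.0 ± 5.14 CPM in INS-SMA and 20.1 ± 0.43 CPM in INS-MOCK (SD, n = 3 each). In a fit on the most abundant row of each gene, the log2 fold change of Smad7 was 1.84 (adjusted p = 0.0109). The direction held in that fit, while the size depended on the rows that were counted.

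**Figure D2:**
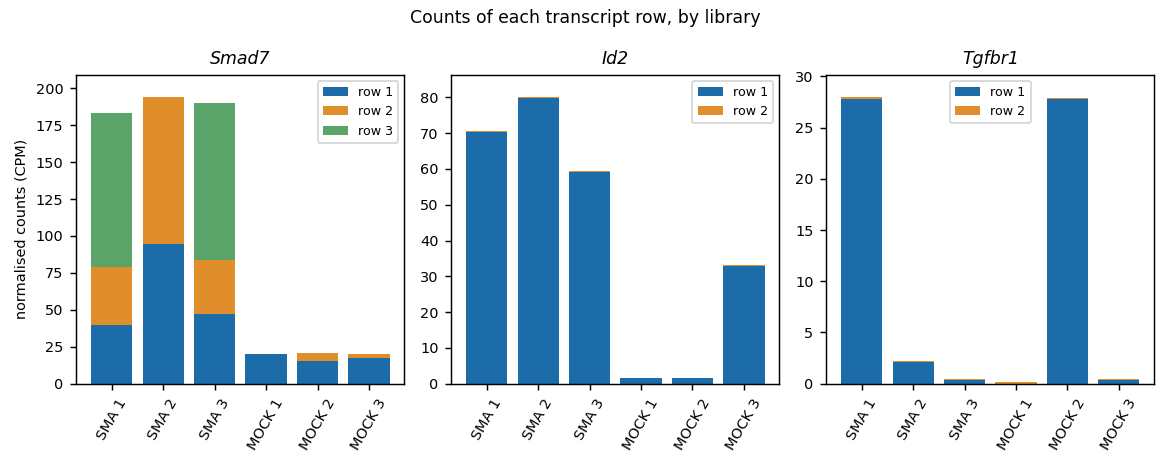
Normalised counts (CPM) of each transcript row of Smad7, Id2 and Tgfbr1, stacked per library, with the 3 INS-SMA libraries left of the 3 INS-MOCK libraries; for Smad7, row 1 is the annotated transcript and rows 2 and 3 carry the identifier of the gene. The division of Smad7 between rows differed between INS-SMA libraries while their sum stayed between 184 and 194 CPM, and the swings of Id2 and Tgfbr1 lay in 1 row each.

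The early response gene Klf10, also called TIEG1 for TGF-beta inducible early gene, encodes a zinc finger repressor. Klf10 (chromosome 7, 77156006 to 77162148, minus strand) was at 2362, 2448 and 2423 CPM in INS-SMA, against 291, 278 and 275 CPM in INS-MOCK. The groups were well apart, and the log2 fold change was 3.10 (SE 0.04, edgeR adjusted p = 2.01e-06), with a range of 3.08 to 3.19 over the other settings. Klf11, a close relative of Klf10 and a further TGF-beta target, moved by a similar amount, with 451, 486 and 472 CPM in INS-SMA against 48.7, 56.3 and 54.3 CPM in INS-MOCK (log2 fold change 3.14, SE 0.07, adjusted p = 4.39e-06).

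The corepressor gene Skil (SnoN) was not called. Its product holds SMAD complexes inactive at their targets until TGF-beta triggers its breakdown. Skil (chromosome 2, 115866701 to 115891097, minus strand) was at 8.11, 8.21 and 5.25 CPM in INS-SMA, against 7.31, 7.58 and 6.07 CPM in INS-MOCK, and the groups overlapped. The 2 groups differed by a log2 fold change of 0.04 with a 95% interval of -0.539 to 0.622 (edgeR adjusted p = 0.898). Ratios of counts within a library do not depend on the scaling of libraries. There were 291, 298 and 462 counts of Klf10 per count of Skil in INS-SMA, against 39.8, 36.7 and 45.3 in INS-MOCK. Likewise there were 18.6, 14.5 and 14.9 counts of Smad7 per count of Smad3 in INS-SMA, against 1.59, 1.77 and 1.84 in INS-MOCK. These pairs were chosen after their values were seen, and the ratios are given as a description.

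The Id genes had positive fold changes throughout, but only Id3 was called. Id3 (chromosome 5, 154489590 to 154491223, plus strand) was at 108, 103 and 116 CPM in INS-SMA, against 42.0, 38.8 and 39.3 CPM in INS-MOCK. The rise was 1.45 log2 units (SE 0.07, adjusted p = 2.54e-05 by edgeR), with a range of 1.40 to 1.54 over the other settings. Id1 (chromosome 3, 148215540 to 148216718, plus strand) was at 146, 167 and 172 CPM in INS-SMA, against 139, 118 and 79.5 CPM in INS-MOCK. The highest INS-MOCK library lay just under the lowest INS-SMA library. Id1 had a log2 fold change of 0.52 with a 95% interval of -0.00315 to 1.05 (adjusted p = 0.0849), and the call depended on the setting: the adjusted p was 0.00803 with DESeq2, 0.0478 without normalisation factors and 0.0342 without INS-MOCK library 1, in a range of 0.00803 to 0.189.

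Id2 (chromosome 6, 44348501 to 44363915, minus strand) was at 70.5, 79.98 and 59.5 CPM in INS-SMA, against 1.69, 1.70 and 33.1 CPM in INS-MOCK. INS-MOCK library 3 stood apart from the other INS-MOCK libraries, with 775 counts against 41 and 38. The log2 fold change of Id2 was 2.52 (SE 1.26, edgeR adjusted p = 0.147) over all libraries and 5.36 without INS-MOCK library 3 (adjusted p = 1.24e-04). Which of these INS-MOCK levels is typical of the cells was not tested, and reads in rows that name no gene are not counted. There were 0.739, 0.618 and 0.677 counts of Id3 per count of Id1 in INS-SMA, against 0.301, 0.328 and 0.494 in INS-MOCK. Every INS-SMA library thus had more Id3 per Id1 than any INS-MOCK library. Counts of Id2 per count of Id1 overlapped, with 0.483, 0.479 and 0.346 in INS-SMA against 0.0122, 0.0144 and 0.417 in INS-MOCK. These ratios, too, were chosen after their values were seen and are a description. In the coordinates of the deposited table, no other named gene overlapped any of the 10 genes.

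**Figure D3:**
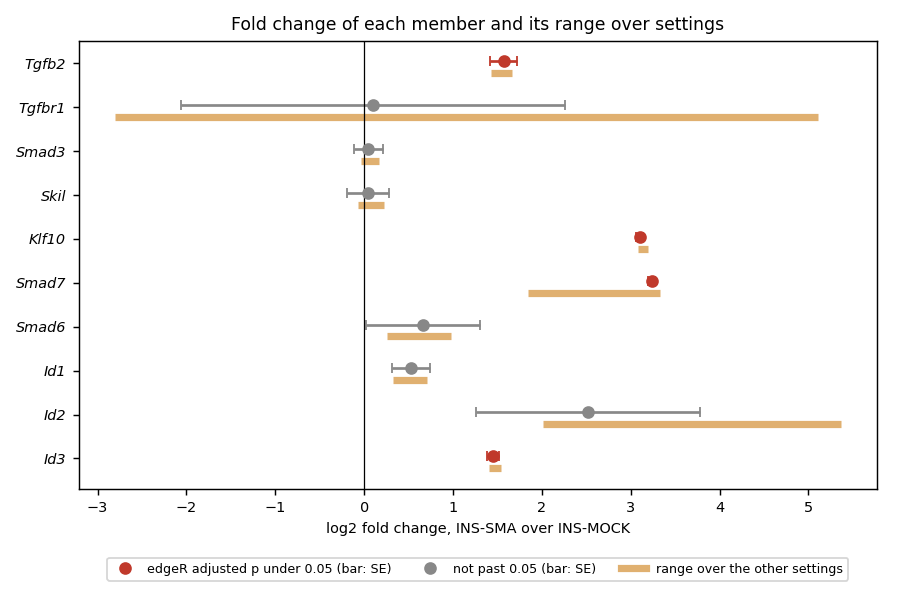
Log2 fold change (INS-SMA over INS-MOCK) of each gene with its SE as a bar, red where the edgeR adjusted p was under 0.05 and grey where it was not; the ochre band is the range over the other settings of the analysis. The bands of Smad7, Klf10, Tgfb2 and Id3 lie wholly above 0, as do those of Smad6, Id1 and Id2, which were not called. Those of Smad3, Skil and Tgfbr1 cross 0, and the bands of Id2 and Tgfbr1 are the widest of the 10.

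Set out by branch, the 5 members of the TGF-beta branch (Tgfb2, Tgfbr1, Smad3, Skil and Klf10) had log2 fold changes of 0.04 to 3.10, with a median of 0.10, and 2 of them rose. The 4 members of the BMP branch (Smad6, Id1, Id2 and Id3) had log2 fold changes of 0.52 to 2.52, with a median of 1.06, and 1 of them rose. Over all tested genes 28.1% rose, so neither count says anything particular of its branch. Smad7, which serves both branches, rose. The median of the TGF-beta branch is the value of Tgfbr1, which was not resolved. The top value of the BMP branch is that of Id2, which was not called. The medians are therefore no measure of a difference between branches, which was not tested, since genes are not replicates. Each branch held genes that rose beside genes that were not called.

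Other genes of the TGF-beta and activin branch moved in both directions. Of 23 ligands, receptors and SMADs, 15 passed the count filter, and 4 rose, 4 fell and 7 were not called (median log2 fold change -0.40). Over all tested genes 28.1% rose and 27.0% fell, so neither count is particular to this list. The same shares are the background for the counts of each list below. The activin receptor gene Acvr2a was at 126, 138 and 129 CPM in INS-SMA, against 14.4, 17.9 and 11.0 CPM in INS-MOCK (log2 fold change 3.18, edgeR adjusted p = 6.73e-05). The ligand gene Tgfb3 rose, with 4.78 ± 0.80 CPM in INS-SMA and 0.397 ± 0.16 CPM in INS-MOCK (SD, n = 3 each), as did Ltbp1, which encodes a latent TGF-beta binding protein (log2 fold change 2.08). Ltbp2, which is named because it completes the 4 that rose, had 21, 23 and 19 counts in INS-SMA and 0 in each INS-MOCK library, at least 7.91-fold higher against a floor of 3 counts per library. Gdf11, a ligand that signals through SMAD2 and SMAD3, fell to 36.8 ± 3.43 CPM in INS-SMA, against 101.5 ± 3.15 CPM in INS-MOCK. Ltbp3 fell too, with a log2 fold change of -0.54 in the gene sum and -1.56 in its most abundant row. The type II receptor gene Tgfbr2, the partner of Tgfbr1, had 0, 0 and 3 counts in INS-SMA and 0 in each INS-MOCK library, and was not tested. Smad4, the SMAD shared by both branches, is named after its values were seen: it had 5.59, 2.11 and 4.98 CPM in INS-SMA, against 7.93, 1.12 and 97.1 CPM in INS-MOCK, and was not called (adjusted p = 0.153). Its high value lay in INS-MOCK library 3, where Id2 was also high, whereas the high INS-MOCK value of Tgfbr1 lay in library 2. Whether these swings are related was not tested.

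Among inhibitors of SMAD signalling 17 of 22 were tested, of which 9 rose, 2 fell and 6 were not called (median 0.29). Bambi, a decoy receptor of both branches and itself a target, rose to 87.4, 97.1 and 98.7 CPM in INS-SMA, against 45.9, 37.2 and 39.1 CPM in INS-MOCK (log2 fold change 1.21, edgeR adjusted p = 2.22e-04). Nog (noggin), which encodes a secreted BMP antagonist, and Bmper, which encodes a secreted BMP-binding protein, rose, with log2 fold changes of 3.66 and 2.72. Smurf2, a ubiquitin ligase that SMAD7 brings to the receptors, rose by a small amount, to 184 ± 8.57 CPM in INS-SMA against 150.3 ± 1.79 CPM in INS-MOCK (log2 fold change 0.29, adjusted p = 0.00244).

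Of 22 symbols of TGF-beta target genes (Ctgf and Ccn2 name the same gene), 15 were tested, of which 9 rose, 2 fell and 4 were not called (median 0.86). Beside Klf11, the genes that rose included Junb, an AP-1 subunit (166 ± 17.4 CPM in INS-SMA and 26.3 ± 2.98 CPM in INS-MOCK), Bhlhe40, a bHLH repressor (706 ± 12.2 and 146.7 ± 20.2 CPM in the same order), and Angptl4, a lipoprotein lipase inhibitor (5.56 ± 0.64 and 0.173 ± 0.08 CPM in the same order). Fn1, which encodes the matrix protein fibronectin and is a standard TGF-beta target in fibroblasts, went the other way, at 265, 321 and 318 CPM in INS-SMA against 3464, 3271 and 3270 CPM in INS-MOCK (log2 fold change -3.47, SE 0.09, edgeR adjusted p = 6.44e-06).

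In the BMP branch, 10 of 17 ligands, receptors and SMADs were tested, of which 4 rose, 2 fell and 4 were not called (median 0.48). Smad9, which encodes a BMP-activated SMAD, was at 226, 237 and 232 CPM in INS-SMA, against 44.8, 45.99 and 43.5 CPM in INS-MOCK (log2 fold change 2.37, SE 0.04, edgeR adjusted p = 2.90e-06). Its relatives Smad1 and Smad5 had log2 fold changes of 0.59 and 0.44 and were not called (adjusted p = 0.0994 and 0.260). The receptor gene Bmpr1a rose to 211 ± 13.7 CPM in INS-SMA, against 104.5 ± 3.12 CPM in INS-MOCK. The ligand gene Gdf6 had 8, 33 and 32 counts in INS-SMA, against 0, 3 and 2 counts in INS-MOCK, and rose (log2 fold change 3.81). Bmp1, a protease gene in spite of its name, fell (log2 fold change -1.29, and -3.14 in its most abundant row), as did the coreceptor gene Rgmb (-0.70).

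Of 12 BMP target genes, 8 passed the count filter, and 7 of them rose, 0 fell and 1 was not called (median 2.00). Id4, the remaining Id gene, was at 69.2, 88.97 and 88.9 CPM in INS-SMA, against 25.5, 17.7 and 15.9 CPM in INS-MOCK (log2 fold change 2.06, edgeR adjusted p = 5.84e-04). Atoh8, a bHLH gene known as a BMP target, was at 57.7 ± 2.14 CPM in INS-SMA and 6.56 ± 1.14 CPM in INS-MOCK (log2 fold change 3.14). Tnfrsf11b (osteoprotegerin, log2 fold change 1.38), Runx2, a bone transcription factor gene (1.93), and Hey1 (2.87), also a Notch target, rose as well. Genes that pass the filter through their INS-SMA libraries alone had to differ, so these counts are no measure of the whole list. The same holds for the counts of the other lists with such genes. Among them are Ltbp2, Gdf6 and Angptl4, which had 0 to 5 counts in the INS-MOCK libraries. So are Nog (10, 10 and 8 counts in INS-MOCK), Tgfb3 (14, 7 and 7) and Hey1 (17, 9 and 6).

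**Figure D4:**
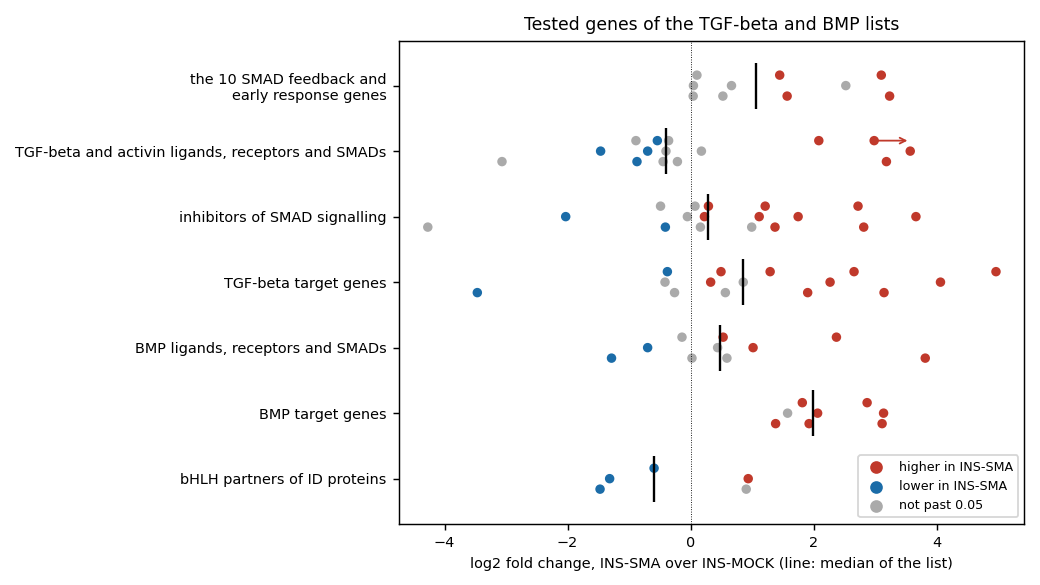
Log2 fold changes (INS-SMA over INS-MOCK) of the tested genes in each list, with the 10 SMAD feedback and early response genes on top; red points rose, blue points fell, grey points were not called, black lines are medians, and the arrow marks the lower bound of Ltbp2, which was at 0 in INS-MOCK. The BMP target genes lie between 1.38 and 3.14 on the right of 0, while the ligand and receptor list of TGF-beta and activin lies on both sides.

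The bHLH partners of ID proteins were mostly lower. Of 8 genes 5 were tested, of which 3 fell, 1 rose and 1 was not called (median -0.59). Neurod1, a beta cell bHLH factor gene, was at 221, 239 and 258 CPM in INS-SMA, against 622, 598 and 568 CPM in INS-MOCK (log2 fold change -1.32, edgeR adjusted p = 4.16e-05). The E-protein gene Tcf3 fell to 54.4 ± 0.74 CPM in INS-SMA, against 82.1 ± 1.74 CPM in INS-MOCK, and Bhlha15 (MIST1), a bHLH factor of secretory cells, had a log2 fold change of -1.47.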

How the data were processed

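RNA from 6 INS-1 samples was sequenced, 3 INS-SMA and 3 INS-MOCK. The authors deposited raw counts per transcript row, 1 column per library. HISAT2, HISAT, DESeq2 and the builds hg19 and rn6 are named, without roles, per the submitters' processing notes. How reads were counted, and whether by strand, is not given in the sources used here. Coordinates of genes are those of the deposited table, and rn6 is the rat build named. Of 101905 rows, 66301 name no gene and entered neither the library sizes nor the tests.

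Counts were summed per gene, filtered with filterByExpr (minimum count 10), scaled with TMM factors and tested with edgeR 4.0.16 (R 4.3.3) by glmQLFit and glmQLFTest, with group as the only term and Benjamini-Hochberg adjustment over 13363 genes. The SE is the size of the log2 fold change divided by the square root of F. Intervals (95%) use the t distribution of that fit. CPM (counts per 1e6, computed here) are on TMM-scaled library sizes, and a floor of 3 counts per library (0.117 to 0.180 CPM) serves as the bound for genes at 0. Floors cover counting error only. Libraries of a group differed by more than counting error: chi-square over its degrees of freedom was 46.8 to 61.0 for pairs within a group. P-values set the difference between groups against the spread between the libraries of a group, which may be technical in part. Whether that spread covers separately made cell populations is not known, as the labels do not say. The edgeR step was tested on simulated data.

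The members and lists were chosen with earlier results of these data known. The rule for named genes takes the 10 members, the 5 list genes with the smallest adjusted p among those called in each list, ACTA2 and Ins1. A few genes under this rule are not reported here. Other named genes were chosen after their values were seen. Alternatives were DESeq2 1.42.0, upper-quartile or no factors, no or a strict (minimum count 50) filter, unnamed rows in library sizes, ACTA2 left out, the most abundant row per gene, a replicate block and each library left out.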

Additional observations from a re-analysis of the deposited data

How the results depend on the processing

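Over all 15 alternatives Smad7, Klf10, Tgfb2 and Id3 kept their direction and their call, and the count of members called was 4 or 5 of 10. Genes past the threshold numbered 7359, and 6771 to 7001 with 1 library left out (members called, 4 to 5), 5821 with the most abundant row of each gene and 8300 with DESeq2. With the replicate number as a block, 6294 genes passed, 4 of them members, 3138 higher and 3156 lower. Nothing in the labels ties same-numbered libraries, their deviations from the group means correlated at -0.028, -0.013 and -0.026, and 0 of 3 INS-SMA libraries correlated best with its own number. The sign turned in uncalled genes. With 1 library left out, the log2 fold change of Smad3 ranged from -0.039 to 0.17, that of Skil from -0.066 to 0.23 and that of Tgfbr1 from -2.81 to 5.10. It was below 0 for Smad3 on leaving out INS-SMA replicate 2, INS-SMA replicate 3 (-0.00076) or INS-MOCK replicate 3 (-0.0076), for Skil without INS-SMA replicate 1 (-0.05), INS-SMA replicate 2 or INS-MOCK replicate 3 (-0.05), and for Tgfbr1 without INS-SMA replicate 1, INS-MOCK replicate 1 (-0.44) or INS-MOCK replicate 3 (-0.43). The cause was not tested. Without normalisation factors the median of all tested genes moved to 0.13, with 55.9% of calls higher against 51.0% with TMM factors, and without a filter on low counts it was 0.27. DESeq2 gave no adjusted p for Tgfbr1. Adding unnamed rows that overlap a gene was not run, because those rows carry no coordinates in the table used. Smad6 had 7 to 45 counts per library, and the parts of counting error and of other spread between libraries in its wide interval were not tested.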
